A study of Homo sapiens with 6 samples.

Results

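Collagen chain genes encode the subunits of collagens, the main structural proteins of the extracellular matrix. Of 58884 genes in the deposited table, 44 were protein-coding and had a GENCODE symbol made of COL, a type number, A and a chain number, and these are the members described here. RNA was sequenced from DLD1 parental cells, a human colorectal cancer cell line with a helical domain mutation in PIK3CA, and from DLD1 cells carrying the K477A and R478A changes in p85β (p85β KR-AA cells), with 3 libraries per condition and no treatment named in the labels. p85β, a regulatory subunit of PI 3-kinase, is encoded by PIK3R2, and the study introduced the changes into its nuclear localization sequence in the same parental line with CRISPR/Cas9. The study derived independent homozygous knock-in clones, but the labels do not say which clone a library came from or whether libraries came from separate cultures, so that p-values measure only the spread between these libraries. The comparison asks how the collagen genes differed in expression between both kinds of cells.

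Each collagen molecule is a trimer of chains wound into a triple helix, and chains of one type can combine only with certain partners. Fibrillar collagens (types I, II, III, V, XI, XXIV and XXVII) form the fibers of connective tissue and cartilage. Type IV collagens form the sheet-like network of basement membranes on which epithelia rest. The other classes include beaded filaments (type VI), anchoring fibrils (type VII), short-chain networks (types VIII and X), fibril-associated collagens, transmembrane collagens and the multiplexins (types XV and XVIII). In the colon most fibrillar collagen is made by stromal fibroblasts, while epithelial cells rest on a basement membrane rich in type IV collagen.

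The type IV genes lie in head-to-head pairs, each pair transcribed in opposite directions from start sites close together. The sequences before these start sites are shown because 5 of the 6 type IV genes were called higher in p85β KR-AA cells, beside 28.6% of all genes tested. Of these 5, COL4A3, COL4A4 and COL4A6 had enough counts to be tested only through their p85β KR-AA libraries. A link between these sequences and the calls was not tested. In RefSeq (GRCh38.p14) the start sites were 127 bases apart for COL4A1 and COL4A2, 419 for COL4A4 and COL4A3, and 380 for COL4A6 and COL4A5, taking for COL4A6 the nearer of 2 windows. The first sequence below holds the 126 bases between the start sites of COL4A1 and COL4A2 on the plus strand (chr13:110307158-110307283). The others hold the 250 bases before the start site on the strand of the gene, at chr2:227164206-227164455 (COL4A4, minus), chr2:227164374-227164623 (COL4A3, plus), chrX:108439459-108439708 (COL4A6, minus) and chrX:108439588-108439837 (COL4A5, plus). Capitals mark the CCAAT box and, in its forward or reverse reading, the GC box (GGGCGG), both searched on either strand.
COL4A1 and COL4A2: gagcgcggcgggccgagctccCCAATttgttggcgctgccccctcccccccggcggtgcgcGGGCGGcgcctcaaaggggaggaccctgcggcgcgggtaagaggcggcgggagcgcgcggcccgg
COL4A4: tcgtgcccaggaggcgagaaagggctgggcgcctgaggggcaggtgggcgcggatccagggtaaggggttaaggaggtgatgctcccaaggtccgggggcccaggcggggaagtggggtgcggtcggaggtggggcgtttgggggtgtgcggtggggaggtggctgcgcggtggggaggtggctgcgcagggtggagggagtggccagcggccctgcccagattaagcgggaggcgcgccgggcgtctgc
COL4A3: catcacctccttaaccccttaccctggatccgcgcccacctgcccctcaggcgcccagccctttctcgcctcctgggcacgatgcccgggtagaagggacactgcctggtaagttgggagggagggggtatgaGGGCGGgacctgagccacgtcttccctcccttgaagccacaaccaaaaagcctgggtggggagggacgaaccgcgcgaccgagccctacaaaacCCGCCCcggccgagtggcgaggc
COL4A6: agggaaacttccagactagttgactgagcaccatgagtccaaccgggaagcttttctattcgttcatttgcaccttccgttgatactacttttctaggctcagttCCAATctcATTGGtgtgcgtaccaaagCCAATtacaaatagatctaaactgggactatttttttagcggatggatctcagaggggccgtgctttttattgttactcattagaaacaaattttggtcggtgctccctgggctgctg
COL4A5: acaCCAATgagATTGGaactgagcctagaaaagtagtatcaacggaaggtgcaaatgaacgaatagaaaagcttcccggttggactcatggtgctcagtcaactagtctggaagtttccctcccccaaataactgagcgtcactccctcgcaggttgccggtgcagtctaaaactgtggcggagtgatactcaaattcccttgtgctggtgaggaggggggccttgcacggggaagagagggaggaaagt
The windows of COL4A6 and COL4A5 share 121 bases, read on opposite strands, and those of COL4A4 and COL4A3 share 82. CCAAT occurred in the windows of 4 of the 6 type IV genes (COL4A1, COL4A2, COL4A5 and COL4A6), and in 32.0% of all 35116 RefSeq windows of this length. GGGCGG occurred in 4 (COL4A1, COL4A2, COL4A3 and the other window of COL4A6), against 42.6% of all windows. TATAAA, the TATA box, occurred in none of the type IV windows and in 10.7% of all windows. The CCAAT and GGGCGG between COL4A1 and COL4A2 lie in both of their windows. The bases shared by COL4A6 and COL4A5 also hold CCAAT, so that these genes do not count independently. A gene counted if any of its windows held the motif, while the percentages are per window, so that both are not directly comparable. Windows were found for 32 of the 44 collagen genes, and those of COL14A1, COL1A1, COL1A2, COL20A1, COL22A1, COL2A1, COL3A1, COL5A2, COL6A1, COL6A5, COL8A1 and COL9A3 were missing. Of the 32 genes, 11 held CCAAT, 21 GGGCGG and 7 TATAAA. The median GC content was 64.2% in the collagen windows and 58.0% in all windows, and its part in these counts was not tested.

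Libraries held 20301396 to 26712816 estimated counts, and 1 count was worth 0.0273 to 0.0728 CPM (counts relative to library size, which was scaled by the TMM method). TMM centers the comparison on the bulk of the genes. The TMM factors were 0.677 to 0.777 in parental and 1.35 to 1.41 in p85β KR-AA libraries. Scaling by library totals alone raised the median log2 fold change over all genes by 0.92. This bears on every value below, and can change the sign or the call of those near zero or near the fold threshold. Markers of other cell types also moved with the condition. Of 16 fibroblast or mesenchymal markers other than collagens, 4 were over 1 CPM in every parental library and 9 in every p85β KR-AA library, and their summed level was 25.6 to 29.1 CPM in parental libraries, against 6406 to 7327 CPM in p85β KR-AA libraries, most of it from FN1 and VIM, and 6 of them were called higher (FN1, VIM, FBN1, LUM, DCN and TWIST2) and 1 lower (TAGLN). In the p85β KR-AA libraries PDGFRA and TWIST1 were at 0, and THY1, SPARC, FAP, PRRX1 and POSTN were at 0.104 CPM or less. Of 15 colon epithelial markers, 13 were over 1 CPM in every parental and 12 in every p85β KR-AA library, with summed levels of 58053 to 80154 and 9051 to 10593 CPM, and 3 were called higher (CDH1, CEACAM5 and CDH17) and 8 lower (KRT8, KRT18, KRT19, CDX2, VIL1, LGALS4, CLDN3 and CLDN4). CDX2 fell from 322 to 365 CPM in parental libraries to 84.5 to 93.9 CPM, and EPCAM, not called, was at 248 to 363 CPM in parental and 146 to 185 CPM in p85β KR-AA libraries, while CDX1 was at 0.199 CPM or less in every library. Of 6 chondrocyte markers, SOX9, MATN3 and ACAN were called higher, and COMP was at 0 in every p85β KR-AA library. The summed level of the 6 was 32.0 to 63.4 CPM in parental and 214 to 231 CPM in p85β KR-AA libraries, nearly all of it SOX9. SOX9 had 31.2 to 62.7 CPM in parental and 208 to 226 CPM in p85β KR-AA libraries. MATN3 reached at most 4.53 CPM and ACAN at most 1.28 CPM in any library. The 6 endothelial markers with an entry in the table summed to at most 3.10 CPM in any library, and the 5 blood markers to at most 6.70 CPM, nearly all of it CD14. Beside these calls, 28.6% of all genes tested were called higher and 17.6% lower. VIM, FBN1, LUM, DCN, TWIST2, CEACAM5, MATN3 and ACAN had enough counts to be tested only through their p85β KR-AA libraries. Their calls are therefore not independent of the filter on low counts. The part of other cell types in the collagen values was not tested, and in bulk RNA more cells of a type and more RNA per cell cannot be told apart.

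Collagen transcripts made up a larger part of the RNA in p85β KR-AA cells, and their make-up differed. On the TPM scale (counts divided by the deposited gene length and set to a common library sum), the 44 genes summed to 108, 73.2 and 94.1 TPM in parental replicates 1, 2 and 3, and to 972, 1042 and 947 TPM in p85β KR-AA replicates 1, 2 and 3. Every p85β KR-AA library lay above every parental library. Their share of all estimated counts lay between 0.0232% and 0.0321% in parental libraries, against 0.299% to 0.325% in p85β KR-AA libraries. Between 15 and 16 members reached 1 CPM in a parental library, and 25 did so in each p85β KR-AA library. The fibrillar share of the summed collagen TPM lay between 1.19% and 1.54% in parental libraries, against 58.4% to 60.9% in p85β KR-AA libraries. Type IV collagens took 3.25% to 4.75% and 11.2% to 12.4%. The share of the other classes was 93.7% to 95.5% and 27.9% to 29.2%. Their summed level did not fall with this share. It was 69.0 to 103 TPM in parental and 271 to 297 TPM in p85β KR-AA libraries, and 312 to 411 and 390 to 410 CPM. TPM was not scaled by TMM, and the direction of small changes can differ between TPM and CPM.

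**Figure D1:**
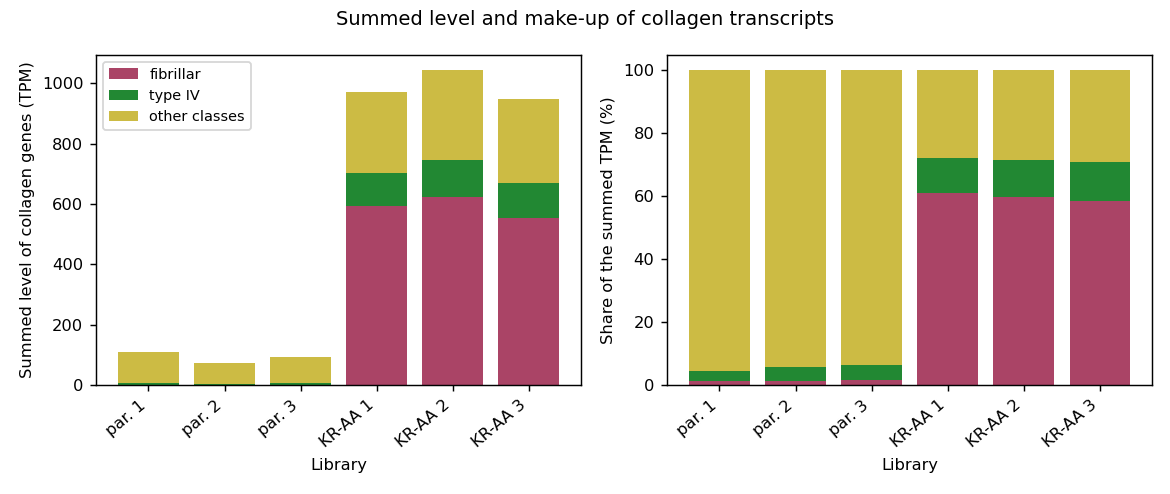
Summed level of the 44 collagen genes in TPM (left) and the percentage of that sum taken by each class (right), one bar per library (par., parental; KR-AA, p85β KR-AA; replicates 1 to 3). The sum was 73.2 to 108 TPM in parental and 947 to 1042 TPM in p85β KR-AA libraries, and the fibrillar share was at most 1.54% in parental and at least 58.4% in p85β KR-AA libraries.

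The leading chains differed between the conditions. COL6A2 was first in TPM among collagens in every parental library, with 48.1% to 54.1% of the sum, followed by COL6A1 and COL18A1. COL5A2 was first in every p85β KR-AA library, with 55.7% to 58.6% of the sum, followed by COL8A1 with 14.9% to 15.9%. Among all genes COL5A2 ranked 228th to 252nd by TPM in p85β KR-AA libraries.

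Of the 44 genes, 30 had enough counts to be tested. A gene was called where it changed 3-fold or more with an adjusted p under 0.01 (edgeR quasi-likelihood test, Benjamini-Hochberg adjustment over 16059 genes). By this rule 17 were called higher in p85β KR-AA cells and 2 lower, while 11 were not called. Across all genes tested, 28.6% were called higher and 17.6% lower, 46.2% in all, and among protein-coding genes 28.2% were called higher and 18.2% lower. Scaled by library totals, 20 collagen genes were called higher and 0 lower, and in that fit 2 fell at an unadjusted p under 0.05. That scaling raised the median log2 fold change over all genes by 0.92, so that these counts show only how the calls moved. The share of all genes called under it is not given, and the 28.6% and 17.6% belong to the reported fit. The median log2 fold change was 2.82 over the tested collagens and 0.32 over all genes tested, but 13 of the 30 collagens (43.3%, against 18.5% of all genes tested) passed the filter on low counts only through their p85β KR-AA libraries and so had to differ. With COL3A1 and COL22A1, which had no parental count, held at their lower bounds, and genes with 1 to 3 parental counts per library at their pooled ratios, the collagen median was 2.39. Of the 16 genes that passed the filter in both conditions, 4 were called higher (COL4A1, COL4A5, COL7A1 and COL27A1) and 2 lower (COL6A2 and COL9A2). The 28.6% and 17.6% over all genes include genes that passed through 1 condition only. No share was computed over the 12607 genes that passed in both. All p85β KR-AA libraries lay above all parental libraries in 21 of the tested collagens and below them in 5, against 47.0% and 36.5% of all genes tested (83.4% in either direction). Collagen genes are long, with a median length of 6454 bases among those tested against 2796 bases over all genes tested, and their median GC content was 55.8% against 49.8%. When the fit carried offsets for length and GC content, 12 collagens were called higher and 0 lower (6 fell at an unadjusted p under 0.05), and their median log2 fold change was 1.51, against -0.15 over all genes in that fit.

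**Figure D2:**
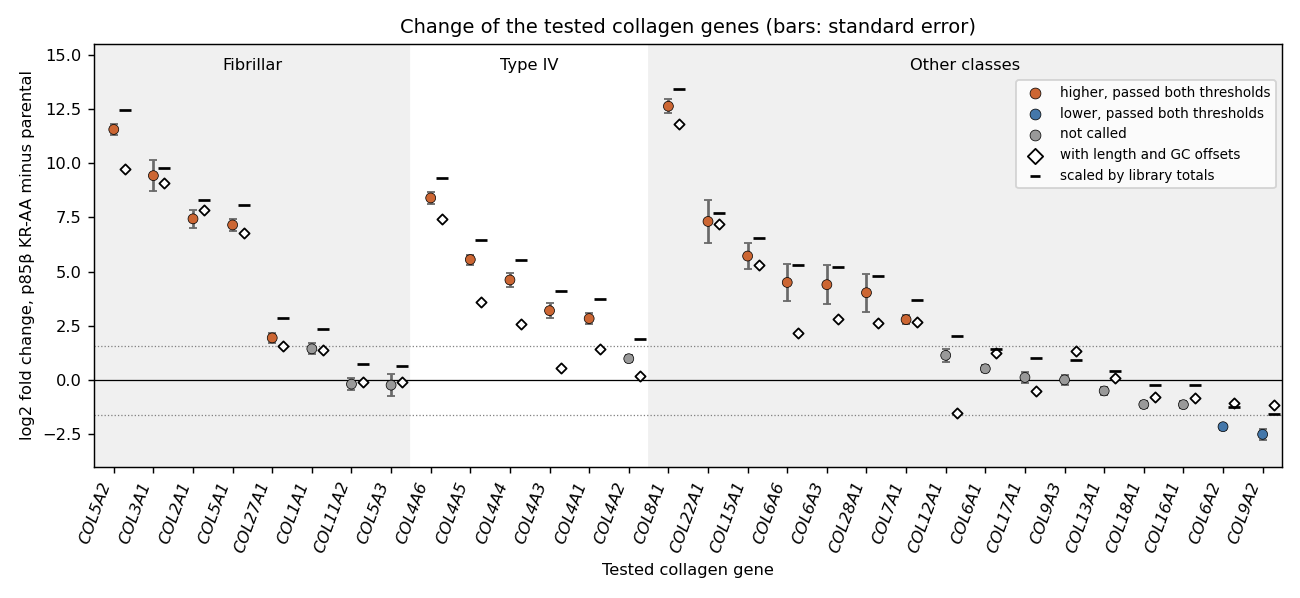
Log2 fold change (p85β KR-AA minus parental) of the 30 tested collagen genes by class, with standard errors from edgeR. Filled circles give the reported fit, diamonds the fit with length and GC offsets, short lines the fit scaled by library totals, and dotted lines a fold of 3 in either direction. COL8A1 (12.63) and COL5A2 (11.56) stand highest, COL9A2 (-2.50) and COL6A2 (-2.15) lowest, and COL12A1 went from 1.14 to -1.52 with the offsets. Fitted values of genes with hardly any parental count depend on the prior count.

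Among the 11 fibrillar genes, 8 were tested, and 5 of these were called higher and 0 lower by edgeR (0 fell at an unadjusted p under 0.05, also by DESeq2), while 28.6% of all genes tested were called higher. COL2A1, COL3A1, COL5A1 and COL5A2 passed the filter on low counts only through their p85β KR-AA libraries and so had to differ. Of the 3 fibrillar genes that passed it in both conditions (COL1A1, COL11A2 and COL27A1), 1 was called higher. COL5A2 encodes the α2 chain of type V collagen, a minor fibrillar collagen that joins type I fibrils and limits their diameter. COL5A2 (ENSG00000204262, GRCh37 chr2:189896624-190090038) had 0.332, 0.291 and 0.802 CPM in parental replicates 1, 2 and 3, and 1507, 1532 and 1424 CPM in p85β KR-AA replicates 1, 2 and 3. The conditions did not overlap, and in counts this was 5, 4 and 13 against 55249, 43990 and 39078. Its log2 fold change was 11.56 (SE, the standard error, 0.26; adjusted p = 1.72e-11 by edgeR), and 9.74 with length and GC offsets.
COL5A1, the partner chain of COL5A2 in type V collagen, had 3, 3 and 2 counts in parental libraries, and 23.2, 26.8 and 28.5 CPM in p85β KR-AA libraries. It was far higher in all p85β KR-AA libraries. From pooled counts it was 146-fold higher (95% exact interval 73.8 to 338, counting error only, adjusted p = 1.49e-09 by edgeR). COL5A3, the remaining type V chain, was low in both conditions, at 0.731, 0.218 and 0.802 CPM in parental and 0.300, 0.557 and 0.692 CPM in p85β KR-AA libraries. Its libraries overlapped (log2 fold change -0.23, standard error 0.50), and it turned to 0.67 under library totals, 0.028 without parental replicate 3 and 0.084 without p85β KR-AA replicate 1.
COL2A1, the chain of cartilage collagen II, had 2, 0 and 2 counts in parental libraries and 16.04, 13.9 and 19.0 CPM in p85β KR-AA libraries. It was 183-fold higher from pooled counts (95% exact interval 71.3 to 672.5, adjusted p = 7.73e-09 by edgeR). COL3A1, the chain of type III collagen, common in distensible tissues, had no count in any parental library and 4.20, 3.48 and 3.53 CPM in p85β KR-AA libraries. Set against 3 counts in a parental library, it was at least 17.1-fold higher (adjusted p = 3.84e-07 by edgeR). COL3A1 lies tail to tail with COL5A2, 19151 bases away in GRCh37, and per length COL5A2 was 291 to 357 times as high as COL3A1 in p85β KR-AA libraries.
COL27A1, a fibrillar chain found mainly in cartilage, rose from 1.59, 1.31 and 1.97 CPM to 6.38, 6.20 and 6.41 CPM, a log2 change of 1.95 (standard error 0.24, adjusted p = 6.43e-06 by edgeR). Its log2 fold change was 1.60 with length and GC offsets. COL1A1 encodes the α1 chain of type I collagen, the most common collagen of connective tissue. COL1A1 had 2.59, 1.60 and 2.90 CPM in parental and 5.56, 6.62 and 7.32 CPM in p85β KR-AA libraries. Its libraries did not overlap, but its fold of 2.72 lay under the threshold (log2 fold change 1.45, standard error 0.26, adjusted p = 1.77e-04 by edgeR), while scaling by library totals put it past the threshold at 2.36. COL1A2, the partner chain of COL1A1 in common type I collagen, had 0.99 of a count in parental replicate 1 and none in any other library.
COL11A2, a type XI chain, lay at 2.22 to 3.32 CPM in parental and 2.11 to 2.96 CPM in p85β KR-AA libraries, with overlapping conditions. Its log2 fold change of -0.18 (95% interval -0.70 to 0.33) turned to 0.75 under library totals and to 0.015 with at least 10 counts required in every library. COL11A1 had at most 5 counts and COL24A1 at most 2 counts in any library, and neither was tested.

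**Figure D3:**
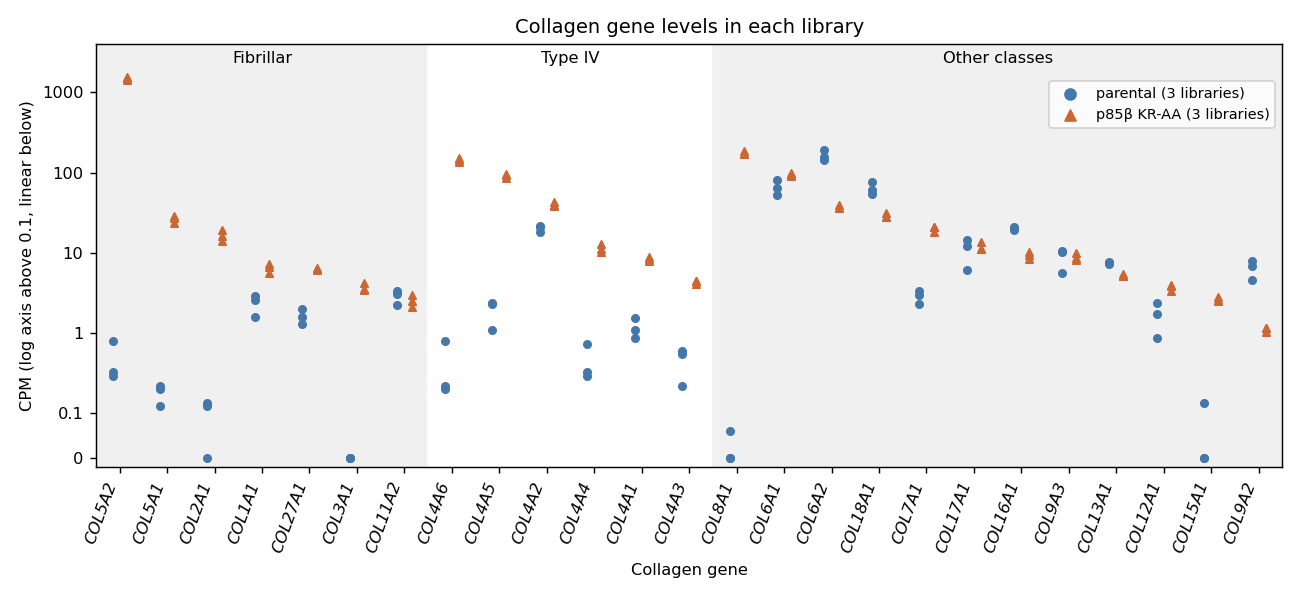
CPM of each collagen gene with a mean of at least 1 CPM in either condition, one point per library (circles, parental; triangles, p85β KR-AA), by class and in order of the p85β KR-AA mean. The axis is logarithmic above 0.1 and linear below it. COL5A2 lies under 1 CPM in every parental library and at 1424 CPM or more in every p85β KR-AA library, while COL6A2 and COL18A1 lie higher in the parental libraries.

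All 6 type IV genes were tested, with 5 called higher and 0 lower by edgeR (0 fell at an unadjusted p under 0.05, also by DESeq2), beside the same 28.6% over all genes. COL4A3, COL4A4 and COL4A6 passed the filter only through their p85β KR-AA libraries, and of the 3 that passed it in both conditions (COL4A1, COL4A2 and COL4A5), 2 were called higher. The α1 and α2 chains form the network found in nearly all basement membranes, the α3, α4 and α5 chains that of kidney and lung, and the α5 and α6 chains that of some epithelia and smooth muscle. COL4A6 was the highest of them in p85β KR-AA cells, with 136, 144 and 152 CPM against 0.199, 0.218 and 0.802 CPM in parental cells. Its log2 fold change was 8.40 (standard error 0.29, adjusted p = 3.53e-10 by edgeR). COL4A5, its head-to-head neighbor on chromosome X, had 2.39, 1.09 and 2.28 CPM in parental and 85.7, 96.7 and 93.4 CPM in p85β KR-AA libraries, a log2 change of 5.56 (standard error 0.23, adjusted p = 1.96e-09). Both were higher in every p85β KR-AA library. Within a library, the ratio of COL4A6 to COL4A5 in TPM was 0.0800, 0.192 and 0.337 in parental and 1.52, 1.44 and 1.56 in p85β KR-AA libraries, the former resting on 3, 3 and 13 counts of COL4A6. With the offsets the values were 7.43 for COL4A6 and 3.61 for COL4A5.
COL4A4 and COL4A3, paired on chromosome 2, were near 1 CPM or below in parental cells. COL4A4 had 0.332, 0.291 and 0.740 CPM in parental and 11.3, 13.0 and 10.4 CPM in p85β KR-AA libraries (log2 fold change 4.62, standard error 0.31, adjusted p = 3.51e-08 by edgeR). COL4A3 had 0.598, 0.218 and 0.555 CPM in parental and 4.12, 4.42 and 4.45 CPM in p85β KR-AA libraries (log2 fold change 3.20, standard error 0.33, adjusted p = 1.53e-06). Both lay higher in every p85β KR-AA library. With length and GC offsets COL4A4 was at 2.58, but COL4A3 was no longer called, at 0.54 with an adjusted p of 0.17.
COL4A1 and COL4A2, paired on chromosome 13, encode the chains of the common network. COL4A1 had 0.863, 1.09 and 1.54 CPM in parental and 8.37, 8.98 and 7.94 CPM in p85β KR-AA libraries (log2 fold change 2.84, standard error 0.26, adjusted p = 4.13e-07 by edgeR). COL4A2 was already at 18.3, 21.5 and 21.2 CPM in parental cells and had 38.3, 39.8 and 43.0 CPM in p85β KR-AA cells, a fold of 1.99 that lay under the threshold (log2 fold change 0.99, standard error 0.15, adjusted p = 4.12e-05). COL4A1 and COL4A2 did not overlap between conditions. Per length COL4A2 was 13.9 to 21.3 times as high as COL4A1 in parental and 4.46 to 5.45 times in p85β KR-AA libraries. With length and GC offsets COL4A1 came under the fold threshold, at 1.43, and COL4A2 was at 0.20, while under library totals COL4A2 passed it, at 1.91. The GRCh37 annotations of COL4A1 and COL4A2 overlap by 1346 bases on opposite strands, and the library kit named in the labels does not mark strand, so that reads in this stretch are uncertain. The order of the type IV chains by mean TPM in p85β KR-AA cells was COL4A6 (55.3 ± 2.99, SD, n = 3), COL4A5 (36.8 ± 2.90), COL4A2 (16.1 ± 0.807), COL4A1 (3.35 ± 0.303), COL4A4 (2.996 ± 0.425) and COL4A3 (1.39 ± 0.0740), where COL4A1 and COL4A4 lay within their spread of each other.

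Among the 27 genes of the other classes, 16 were tested, and 7 of these were called higher and 2 lower, beside 28.6% and 17.6% over all genes tested. Of the 7, 6 passed the filter only through their p85β KR-AA libraries, and COL7A1 was the 1 called higher among the 10 that passed it in both conditions. The short-chain collagen COL8A1 encodes a subunit of type VIII collagen, a network protein of blood vessel walls and of the cornea. COL8A1 (ENSG00000144810, GRCh37 chr3:99357319-99518070) had 0, 0 and 0.97 of a count in parental libraries and 169.6, 187.7 and 168.6 CPM in p85β KR-AA libraries. It was near absent in parental cells and the second most abundant collagen in p85β KR-AA cells (adjusted p = 2.54e-11 by edgeR). From pooled counts it was 7871-fold higher, with a 95% exact interval of 1413 to 310916 that shows how little a single parental count fixes the fold. COL8A2, its partner chain, had 4, 5 and 1 counts in p85β KR-AA and none in parental libraries. COL10A1, the other short-chain collagen and a product of hypertrophic chondrocytes, had 15, 9 and 5 counts in p85β KR-AA and 0, 2 and 0 in parental libraries. Neither was tested.

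Type VI collagen is built from COL6A1, COL6A2 and a longer chain such as COL6A3, and the balance of COL6A1 and COL6A2 differed between the conditions. COL6A2 (ENSG00000142173, GRCh37 chr21:47518026-47552762) had 191.1, 154.5 and 144.5 CPM in parental and 35.8, 35.7 and 39.2 CPM in p85β KR-AA libraries. It fell in every p85β KR-AA library, with a log2 change of -2.15 (standard error 0.14, adjusted p = 3.04e-08 by edgeR), and stayed lower but under the fold threshold with library totals (-1.22) and with length and GC offsets (-1.04). COL6A1, 93061 bases away in tandem, had 80.2, 52.1 and 63.5 CPM in parental and 92.96, 90.7 and 98.2 CPM in p85β KR-AA libraries. COL6A1 lay higher in p85β KR-AA libraries by a log2 change of 0.53 (standard error 0.16, adjusted p = 0.00762), under the fold threshold, and by 1.44 under library totals. The TPM ratio of COL6A1 to COL6A2, which no scaling of libraries can change, was 0.343, 0.275 and 0.359 in parental and 2.12, 2.08 and 2.05 in p85β KR-AA libraries. The ratios did not overlap, and an exact permutation test of 3 against 3 libraries cannot give a two-sided p under 0.1. The lengths of both genes are close (4238 and 3461 bases), as is their GC content (63.5% and 65.3%), and with both offsets in the fit the values still differed in sign (1.26 and -1.04).
COL6A3 had 0, 1 and 0 counts in parental and 30, 10 and 15 in p85β KR-AA libraries, and COL6A6, another long chain, had 0, 0 and 1 against 24, 23 and 11. Both were called higher (adjusted p = 6.03e-04 and 3.04e-04 by edgeR), by 26.7-fold (95% exact interval 4.59 to 1072) and 28.1-fold (4.85 to 1129) from pooled counts, but both stayed under 1 CPM, and with length and GC offsets both lost their calls on the p-value, at log2 values of 2.81 (adjusted p = 0.044) and 2.18 (adjusted p = 0.094). COL6A3 did not pass the filter without p85β KR-AA replicate 1. Per length COL6A1 was at 57.5 ± 1.03 TPM and COL6A3 at 0.137 ± 0.0554 TPM (SD, n = 3) in p85β KR-AA cells. COL6A5 had at most 2 counts in any library and was not tested.

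**Figure D4:**
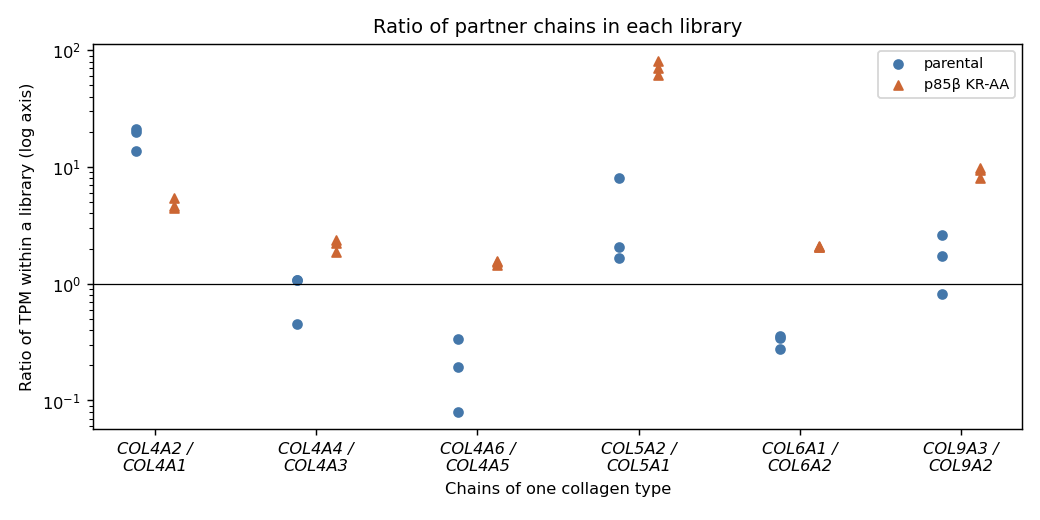
Ratio of TPM between chains of one collagen type within each library, on a log axis (circles, parental; triangles, p85β KR-AA; line at equal levels). The ratio of COL6A1 to COL6A2 lies at 0.275 to 0.359 in parental libraries, against 2.05 to 2.12 in p85β KR-AA libraries. The low parental counts of COL5A1, COL4A6, COL4A4 and COL4A3 spread their points.

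Of the collagens of epithelial attachment, COL7A1 was called higher and COL17A1 was not called. COL7A1, the chain of the anchoring fibrils under stratified epithelia, had 3.39, 2.33 and 2.96 CPM in parental and 18.1, 21.0 and 21.3 CPM in p85β KR-AA libraries. It rose in every p85β KR-AA library (log2 fold change 2.79, standard error 0.21, adjusted p = 6.65e-08 by edgeR), and the value was 2.67 with length and GC offsets. COL17A1, the hemidesmosomal transmembrane collagen, had 12.1, 6.19 and 14.4 CPM in parental and 11.1, 11.2 and 13.5 CPM in p85β KR-AA libraries. Its conditions overlapped, and its log2 fold change of 0.12 (95% interval -0.39 to 0.64) turned to -0.18 without parental replicate 2 and to -0.51 with length and GC offsets, and was 1.03 under library totals.
Of the multiplexins of the basement membrane zone, COL15A1 was called higher and COL18A1 was not called. COL15A1 had 2, 0 and 0 counts in parental libraries and 2.48, 2.82 and 2.59 CPM in p85β KR-AA libraries, and was 58.9-fold higher from pooled counts (95% exact interval 16.1 to 489, adjusted p = 1.65e-06 by edgeR). COL18A1, the precursor of endostatin, had 76.4, 54.0 and 61.1 CPM in parental and 28.1, 28.2 and 31.8 CPM in p85β KR-AA libraries. All p85β KR-AA libraries lay lower, but the log2 fold change of -1.12 (SE 0.16, adjusted p = 2.30e-05) was under the fold threshold and was -0.20 under library totals. COL18A1 overlaps SLC19A1 on the opposite strand, which had means of 803 and 549 counts in parental and p85β KR-AA libraries, so that its counts are uncertain.
Counted together with type IV, types VII, XV and XVIII gave a basement membrane class of 9 genes, with 7 called higher, beside 28.6% over all genes tested. Of these, COL4A3, COL4A4, COL4A6 and COL15A1 passed the filter on low counts only through their p85β KR-AA libraries.

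The fibril-associated collagens were mixed, with 5 of 10 tested, 1 called higher and 1 lower, beside 28.6% and 17.6% over all genes tested. COL9A2, a type IX chain, which decorates type II fibrils in cartilage, had 6.77, 7.94 and 4.57 CPM in parental and 1.17, 1.04 and 1.17 CPM in p85β KR-AA libraries. It fell in every p85β KR-AA library, with a log2 change of -2.50 (standard error 0.27, adjusted p = 2.06e-06 by edgeR), but came under the fold threshold with library totals (-1.56) and with length and GC offsets (-1.14). COL9A3, its partner chain, had 10.3, 5.68 and 10.5 CPM in parental and 8.24, 8.57 and 10.1 CPM in p85β KR-AA libraries. Its conditions overlapped (log2 fold change 0.01, 95% interval -0.45 to 0.48), and its log2 fold change was -0.10 with DESeq2, -0.25 without parental replicate 2, -0.07 without p85β KR-AA replicate 3 and 1.33 with length and GC offsets. It overlaps TCFL5 on the opposite strand, with means of 915 and 847 counts in parental and p85β KR-AA libraries, so that its counts are uncertain. COL9A1, the remaining type IX chain, had 1 count in 1 parental library and none elsewhere.
COL22A1, a collagen of tissue junctions such as that of muscle and tendon, had no parental count and 32, 21 and 27 counts in p85β KR-AA libraries, at least 3.95-fold higher against a floor of 3 parental counts (adjusted p = 4.53e-05 by edgeR). COL16A1 had 21.1, 20.6 and 19.5 CPM in parental and 9.30, 8.29 and 10.4 CPM in p85β KR-AA libraries. In CPM it lay lower in every p85β KR-AA library, but its log2 change of -1.13 (standard error 0.17, adjusted p = 3.69e-05) was under the fold threshold and was -0.21 under library totals. In TPM the order was reversed, at 3.37 to 3.98 in parental and 4.09 to 4.85 in p85β KR-AA libraries. COL12A1, which binds type I fibrils, had 1.73, 0.874 and 2.41 CPM in parental and 3.36, 3.86 and 4.01 CPM in p85β KR-AA libraries. Its log2 fold change of 1.14 (SE 0.31, adjusted p = 0.00469) lay under the fold threshold and turned to -1.52 with length and GC offsets, while library totals put it past the threshold at 2.05. It is the longest tested collagen, at 11725 bases. COL14A1, COL19A1, COL20A1 and COL21A1 had 2 to 15 counts in each p85β KR-AA library and at most 2 in a parental library, and were not tested.
Among the transmembrane collagens, COL13A1 had 7.37, 7.21 and 7.71 CPM in parental and 5.16, 5.50 and 5.14 CPM in p85β KR-AA libraries, without overlap. Its log2 fold change of -0.50 (SE 0.19, adjusted p = 0.026 by edgeR) was under the fold threshold and turned to 0.43 under library totals and 0.08 with length and GC offsets. COL23A1 and COL25A1 had at most 6.6 and 2 counts in any library. COL28A1, a collagen with von Willebrand factor A domains, had 0, 0 and 1 counts in parental and 13, 12 and 16 in p85β KR-AA libraries, 19.9-fold higher from pooled counts (95% exact interval 3.37 to 804, adjusted p = 8.78e-04). With length and GC offsets it lost its call on the p-value, at a log2 value of 2.65 with an adjusted p of 0.034. COL26A1 had 4, 4 and 8 counts in parental and 12, 15 and 19 in p85β KR-AA libraries and was not tested.

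Collagen chains are hydroxylated, glycosylated and folded in the endoplasmic reticulum, cut outside the cell by procollagen proteinases and cross-linked by lysyl oxidases. Of 37 genes for these steps, 35 were tested, and 10 were called higher and 5 lower, with a median log2 fold change of 0.82. The share called higher was 28.6%, as over all genes tested. P3H2 and FKBP14, among others called higher, passed the filter on low counts only through their p85β KR-AA libraries. Their calls are therefore not independent of the filter. Under library totals 17 were called higher, but the share of all genes called in that fit is not given. The genes called higher included hydroxylases, chaperones and an export factor. P3H2, a prolyl 3-hydroxylase that acts on type IV collagen, had 0.197 ± 0.0183 CPM (parental) and 164 ± 10.2 CPM (p85β KR-AA; SD, n = 3 each), and rose by 9.64 on the log2 scale (standard error 0.22, adjusted p = 1.72e-11 by edgeR). PXDN, the peroxidase that forms sulfilimine bonds in type IV collagen, had 3.43 ± 0.721 and 83.4 ± 2.499 CPM (SD, n = 3 each), and rose by 4.59. FKBP10, a collagen chaperone and prolyl isomerase, had 8.58 ± 1.26 and 347 ± 27.2 CPM (SD, n = 3 each), and rose by 5.33. The log2 fold changes were 3.19 for P4HA1, a catalytic chain of prolyl 4-hydroxylase, 2.72 for PLOD2, a lysyl hydroxylase, 4.02 for FKBP14, another prolyl isomerase, and 2.87 for MIA3, which exports procollagen from the endoplasmic reticulum. SERPINH1, the collagen chaperone HSP47, went the other way, with 288.5 ± 24.4 CPM (parental) and 82.3 ± 7.19 CPM (p85β KR-AA; SD, n = 3 each), and fell by 1.81 (standard error 0.13, adjusted p = 5.64e-08 by edgeR). PPIB, a prolyl isomerase, fell by 1.60 on the log2 scale, close to the fold threshold, and was no longer called without parental replicate 2 (-1.54), p85β KR-AA replicate 1 (-1.57) or p85β KR-AA replicate 2 (-1.56). Under library totals SERPINH1 and PPIB were at -0.89 and -0.67 and no longer passed the fold threshold. With length and GC offsets the values were 0.77 for PLOD2, 0.16 for MIA3, -0.67 for SERPINH1 and -0.54 for PPIB, all under the fold threshold.
Of 10 genes for collagen receptors, 6 were tested, and 3 integrin subunits were called higher and 0 genes lower by edgeR (1 fell at an unadjusted p under 0.05, also by DESeq2). Over all genes tested 28.6% were called higher and 17.6% lower. ITGA1 and ITGA2, the α subunits of collagen-binding integrins, had log2 fold changes of 4.49 (standard error 0.41) and 3.27 (0.24), and ITGB1, their shared β subunit, one of 1.67 (0.21). ITGA1, with 5.05, 2 and 13.09 counts in parental libraries, passed the filter on low counts only through its p85β KR-AA libraries. ITGB1 was no longer called with DESeq2 (1.55), without parental replicate 1 (1.47) or without p85β KR-AA replicate 2 (1.56). ITGA2 had 35.9 ± 7.15 CPM in p85β KR-AA against 3.70 ± 1.04 CPM in parental cells (SD, n = 3 each). With length and GC offsets none of the 3 stayed past the fold threshold, and ITGB1 turned to -0.19.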

How the data were processed

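RNA-seq of DLD1 parental and p85β KR-AA cells, 3 libraries each, was analysed, grouped by sample title. The source-name label of some p85β KR-AA samples spells another residue than their title and genotype, which were followed. Per the paper's methods, the authors trimmed paired-end reads with SeqPrep and Sickle. The submitters' processing notes name HISAT2 2.1.0, RSEM 1.3.1, DESeq2 1.24.0 and hg18. The authors deposited estimated counts (expected counts, not normalized) per Ensembl gene and a gene length. The estimated counts were rounded to whole numbers and tested with edgeR 4.0.16 under R 4.3.3 (low counts removed by filterByExpr, set to 10 counts and a total of 15, then TMM, the quasi-likelihood F test without covariates and Benjamini-Hochberg adjustment), with the thresholds of the study's methods. The standard error is the log2 fold change over the root of its F, and intervals are 95%. Intervals and bounds from counts cover counting error only.

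Symbols and GRCh37 positions came from GENCODE release 44 by Ensembl identifier, matching 56745 of 58884 genes and all 44 collagens. The build behind the counts may differ. Alternatives were DESeq2 1.42.0, library totals, other filters, a replicate block, leaving out each library, other thresholds, and per-library offsets for length and GC content (robust splines with 5 degrees of freedom), which remove any relation of expression with either property, whatever its source. The code was tested on simulated counts. The members and lists were chosen with earlier results of these data known. Values in every library are given for collagens with a mean of at least 1 CPM in either condition, and genes of the synthesis and receptor lists are named if called and at least 10 CPM in either condition. Marker genes are named with their list, and other collagens with their counts. A fold against a condition with no count is a lower bound computed against 3 counts in a parental library.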

Additional observations from a re-analysis of the deposited data

How the results depend on the processing

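Of 405 values for the 30 tested collagens under the alternatives, 372 kept direction and call, 9 lost the call, 11 gained it and 13 changed sign. DESeq2 gave 17 collagens called higher and 2 lower, as did the replicate block. With each library left out in turn, 16 to 18 were called higher and 2 lower. Requiring 10 counts in every library left 16 collagens, of which 5 were called higher, 2 fibrillar, 2 type IV and 1 other, and 6 synthesis genes, since genes silent in parental cells are then not tested. Scaling by library totals gave 0 collagens lower and 17 synthesis genes higher. An adjusted p under 0.05 with no fold limit gave 5 collagens lower and 17 synthesis genes higher. With length and GC offsets, 0 collagens were called lower, and 3 type IV genes, 4 of the other classes and 0 receptor genes were called higher (4 receptor genes rose at an unadjusted p under 0.05 by edgeR). The shares of all genes called under these alternatives are not given. The 28.6% higher and 17.6% lower belong to the reported fit, so that these counts show only how the calls moved.

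The genes that changed sign were not called in either direction in the reported fit, except ITGB1 (-0.19 with offsets). COL5A3 was at 0.67 under library totals, 0.028 without parental replicate 3 and 0.084 without p85β KR-AA replicate 1, and ranged down to -0.62 with other libraries left out. COL9A3 was at -0.10 with DESeq2, -0.25 without parental replicate 2 and -0.07 without p85β KR-AA replicate 3. COL11A2 was at 0.75 under library totals and 0.015 with at least 10 counts in every library. COL12A1 was at -1.52 with offsets, COL13A1 at 0.43 under library totals and 0.084 with offsets, and COL17A1 at -0.51 with offsets and at -0.18 to 0.34 with each library left out. The cause of these changes was not tested. Libraries of the same replicate number did not deviate together, with correlations of deviations of -0.14, 0.12 and -0.04 in the 3 number pairs. With the replicate block, COL6A2 was at -2.14 and no collagen changed its call, and the block was left out of the reported fit. With the block, and without the filter, the estimated prior degrees of freedom were infinite, so that p-values of single genes from these fits are not given. Libraries with 3 counts of a gene or fewer limit the folds of COL8A1, COL2A1, COL5A1 and COL15A1 to wide intervals.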

Other observations

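Loci named after collagens that are not protein-coding chains were not members and were looked at after the values of the chains. COL6A4P1, a transcribed pseudogene of a type VI chain, had 3, 7 and 6 counts in parental and 24, 8 and 7 counts in p85β KR-AA libraries. COL4A2-AS1, annotated antisense to COL4A2, had 2, 7 and 8 counts in parental libraries and 3, 1 and 5 in those of p85β KR-AA cells, and without strand in the libraries these cannot be told apart from reads of COL4A2. COL5A1-AS1 had no count in any library, while COL5A1 reached 28.5 CPM. COL10A1 and COL19A1 overlap genes on the opposite strand with far higher counts, NT5DC1 with means of 101 and 701 counts, and LMBRD1 with means of 72 and 526 counts, parental first, so that their low counts are uncertain.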
